A study of Mus musculus with 4 samples.

Results

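The transcripts described here belong to the NRF2 system, the main transcriptional defence of mammalian cells against oxidants and electrophiles. They were 10 genes chosen by name among the non-control probes of a whole mouse genome array: Hmox1, Slc7a11, Nqo1, Gclc, Gclm, Txnrd1, Srxn1, Nfe2l2, Keap1 and Gsr. These genes had 12 of the 39429 probes on the array, and 9 of them were among the 17376 genes tested. All cells were adult C3H/HeN mouse skin epithelial cells sorted for CD49f (integrin alpha 6) and CD34, surface proteins whose combination is a known mark of hair follicle bulge stem cells. Cells called 0p were the first sort out of primary skin epithelium, and 15p cells came from the 15th of a series of cultures of 10 days each with the growth factor Wnt-3a, with a new sort between cultures. Wnt-3a is given in the labels as treatment for 15p and 0p alike, so they do not settle whether 0p cells were exposed to it. The 2 RNAs were hybridised together on each of 4 arrays: 2 biological replicates, each on 2 arrays with the dyes Cy3 and Cy5 exchanged. Arrays are named below by the replicate and the dye of the 15p RNA: 1-Cy5, 1-Cy3, 2-Cy5 and 2-Cy3. Values of the arrays follow this order. Whether separate animals gave the replicates is not in the labels, so p-values reflect at most the spread between replicates, which may be technical. In the main test (limma), p-values and intervals rest mostly on spread shared over all genes (prior degrees of freedom 8.88). A gene's own replicates add less (residual degrees of freedom 1).

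NRF2, encoded by Nfe2l2, is a transcription factor that the adaptor KEAP1 holds in the cytoplasm and delivers to ubiquitin ligase for degradation. Oxidants and electrophiles modify cysteines of KEAP1, after which NRF2 accumulates, pairs with small Maf proteins and binds antioxidant response elements near its target genes. The targets supply glutathione (Slc7a11, Gclc, Gclm), keep glutathione and thioredoxin reduced (Gsr, Txnrd1) and restore overoxidised peroxiredoxins (Srxn1). They also break down heme (Hmox1) and detoxify quinones (Nqo1). In epidermis this system is known to protect keratinocytes against ultraviolet light, chemicals and oxygen.

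Hmox1 was measured by a pair of probes whose sequences do not overlap. They lay 3410 bases apart on mm9 chromosome 8, at 77620797 to 77620856 (dimmer probe) and at 77624207 to 77624266 (brighter probe), both designed on the transcript NM_010442. The Slc7a11 probe lay on chromosome 3 at 50169700 to 50169759, on the minus strand. Their sequences are shown because the results turn on these spots. The dimmer Hmox1 probe is given whole, and the others by their first 30 bases. The dimmer Hmox1 probe has 1 reading frame without a stop codon over its 60 bases, and the brighter has 0. Exon and UTR positions of the probes were not analysed here.

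Hmox1, dimmer probe: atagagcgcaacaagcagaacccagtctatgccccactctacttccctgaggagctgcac
Hmox1, brighter probe: atggttgtaagcatccatgttgactgacca
Slc7a11: agtaatgtatcaggagctttatgtaaatgt

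The letters of the antioxidant response element core, TGACNNNGC, were searched on both strands of RefSeq promoter windows of GRCm38.p6, each running from 250 bases before to 50 after a gene's start. Of the 10 genes, 7 matched an entry there by symbol, and 4 of these held the core in at least 1 window: Nfe2l2, Gclm, Txnrd1 and Srxn1. Slc7a11, Nqo1 and Keap1 had an entry without the core. Hmox1, Gclc and Gsr had no entry, so their promoters were not searched. Over all symbols with an entry, 14% held the core in a window. By window, 4 of 9 of the members held it, and 12.4% of all 32851. The 3 upstream matches are printed in the direction of transcription with the core in capitals. In Gclm and Txnrd1 the core lies on the opposite strand, so the capitals show its reverse complement. The Srxn1 match lay after the start. A match describes letters only.

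Nfe2l2, chr2:75704869-75704913, minus strand: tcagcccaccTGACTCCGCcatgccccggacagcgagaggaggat
Gclm, chr3:122245397-122245457, plus strand: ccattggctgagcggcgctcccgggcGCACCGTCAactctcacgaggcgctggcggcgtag
Txnrd1, chr10:82859088-82859148, plus strand: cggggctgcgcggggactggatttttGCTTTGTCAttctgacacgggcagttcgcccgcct

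The arrays themselves set the scale of what follows. Between 55.5% and 68.3% of spots were well above background in either RNA, and no spot was saturated. The SD of log2 ratios of 15p over 0p across genes was 0.13 to 0.14 on 3 arrays and 0.29 on array 2-Cy5. That array had 108 genes past 2-fold (0.622% of genes), and the other arrays 4, 0 and 3. Within a dye-swapped pair, ratios turned to 15p over 0p ran opposite across genes (r = -0.55 in replicate 1 and -0.40 in replicate 2). Of the markers of basal and bulge epithelium, Itga6, Krt5, Krt14, Krt15 and Trp63 were well above background in both RNAs on all 4 arrays. Krt14 and Krt15 had mean ratios of 0.19 (unadjusted p = 0.0108) and 0.17 (unadjusted p = 0.0101; limma adjusted p = 0.749 for both), with 0.73 and 0.48 on array 2-Cy5, and their part in the ratios of the members was not tested. The other 3 had means between -0.026 and 0.025. The sort marker Cd34 was so on no array in 15p and on at most 1 in 0p. The number of arrays limits the precision.

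No member of the NRF2 system passed the test. The count was 0 of 9 tested members in either direction, where 0% of all genes were called higher and 0% lower in 15p (limma on 2 replicate means, Benjamini-Hochberg adjustment at 0.05 over all genes, where the smallest adjusted value was 0.749). Before adjustment, 3 members had p under 0.05, Hmox1, Slc7a11 and Gclm, as did 6.31% of all genes. That count depended on the processing. It was 1, Slc7a11, with the processed signals of the scanner software and with the deposited value table. With the dye channels fitted as separate measurements it was 0. The mean log2 ratios of Hmox1, Slc7a11 and Gclm were negative, as were those of 8 of the 9 members and of 8446 of the 17376 genes. Of the negative members, Gclc, Txnrd1, Srxn1, Nfe2l2 and Keap1 had 95% intervals that included 0. The median of the 9 was -0.044, against 0.0025 over all genes tested. No member had the same sign on all 4 arrays, which 6.78% of all genes had. The members' ratios are given below as mean ± SD over 2 replicates, with each array's own value.

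Hmox1 encodes heme oxygenase 1, which cleaves heme to biliverdin, iron and carbon monoxide and is among the most inducible NRF2 targets. With the brighter probe, its normalised log2 level in 15p RNA was 11.03, 11.03, 8.35 and 10.76. In 0p RNA it was 10.99, 11.02, 10.75 and 10.72. The low value is thus the 15p channel of a single array, and the other 7 levels lay between 10.72 and 11.03. The log2 ratios of 15p over 0p were 0.047, 0.0088, -2.40 and 0.037. The value of -2.40, which is 5.29-fold more signal in 0p, was the lowest of all 17376 genes on that array. On the other 3 arrays its absolute ratio was among the smaller ones, at ranks 12017, 16229 and 13329 of 17376 from the largest. The mean over replicates was -0.58 ± 0.86 (SD, n = 2; 95% interval -1.02 to -0.13), the second largest absolute mean of all genes, and did not pass (limma adjusted p = 0.749, unadjusted p = 0.0163). This interval and p-value used an SD of 0.28, drawn toward the common value of all genes, not the 0.86 of Hmox1 itself. With both probes averaged the mean was -0.34.

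Raw spot values showed the same. On array 2-Cy5 the brighter Hmox1 spot had a mean of 381 ± 8.55 (standard error over 65 pixels) in Cy5 and 1602 ± 28.5 in Cy3. In the other arrays its Cy5 means were 2780, 2744 and 2604, and its Cy3 means 1143, 1253 and 1563. Around the spot with the low value, local background was 50 (Cy5) and 32 (Cy3). The spot was neither saturated nor marked as irregular on any array. The Cy3 signal of this spot therefore lay slightly above its range on the other arrays, and the Cy5 signal well below.

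The dimmer Hmox1 probe gave its lowest ratio on the same array. Its log2 ratios were 0.066, 0.057, -0.62 and 0.047. The 15p levels were 7.71, 7.63, 7.06 and 7.91, and the 0p levels 7.65, 7.57, 7.67 and 7.87. Both probes thus placed 15p below 0p on that array and within 0.07 log2 units of 0p on the other 3. The size differed between the probes. The log10 ratio that the authors deposited for that array, turned to log2, was -2.63 for the brighter and -1.12 for the dimmer probe. The dimmer spot was close to background there, with a Cy5 mean of 122 over a local background of 43. The plot of levels by RNA and array sets the probes side by side.

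**Figure D1:**
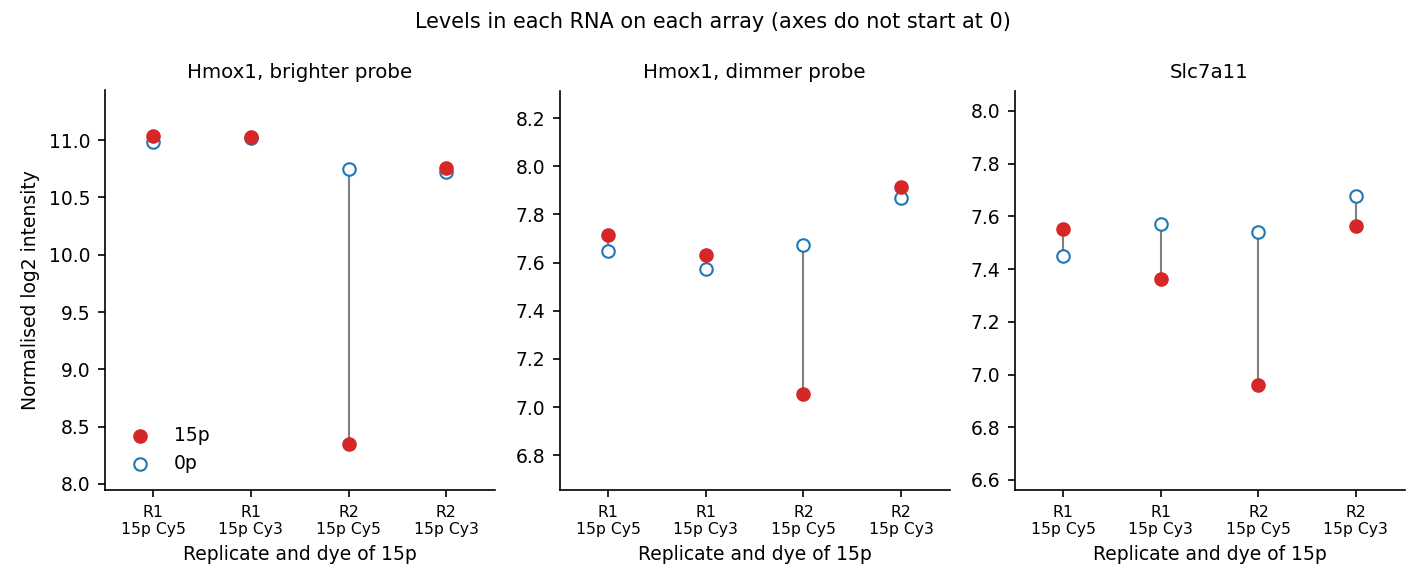
Normalised log2 intensity (vertical axis, not starting at 0) of both Hmox1 probes and of Slc7a11 in 15p (filled red) and 0p (open blue) RNA on each of the 4 arrays (R1 and R2, replicates 1 and 2; dye of 15p below). The 15p point of array 2-Cy5 is the lowest in each panel, at 8.35, 7.06 and 6.96.

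Per the labels, both arrays of a pair carried the same RNAs, so each RNA was measured once in each dye. The 15p RNA of replicate 2 gave a Hmox1 level of 8.35 in Cy5 and 10.76 in Cy3, a difference of -2.41 that was the largest in absolute size of all genes. The 0p RNA of replicate 2 differed by -0.032 between dyes, and the RNAs of replicate 1 by 0.0027 (15p) and 0.035 (0p). Over all genes the SD of this difference was 0.29 for 15p of replicate 2, and 0.14 to 0.18 for the other RNAs. Genes differing by over 1 log2 unit numbered 124 for 15p of replicate 2, and 4, 5 and 16 for the others. Slc7a11 differed by -0.60 in 15p of replicate 2 and Nfe2l2 by -0.39, while for 15p of replicate 2 the other members lay between -0.22 and 0.21. A repeat of the same 15p RNA therefore did not return the low Hmox1 value. Which of these measurements reflects the cells was not tested.

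**Figure D2:**
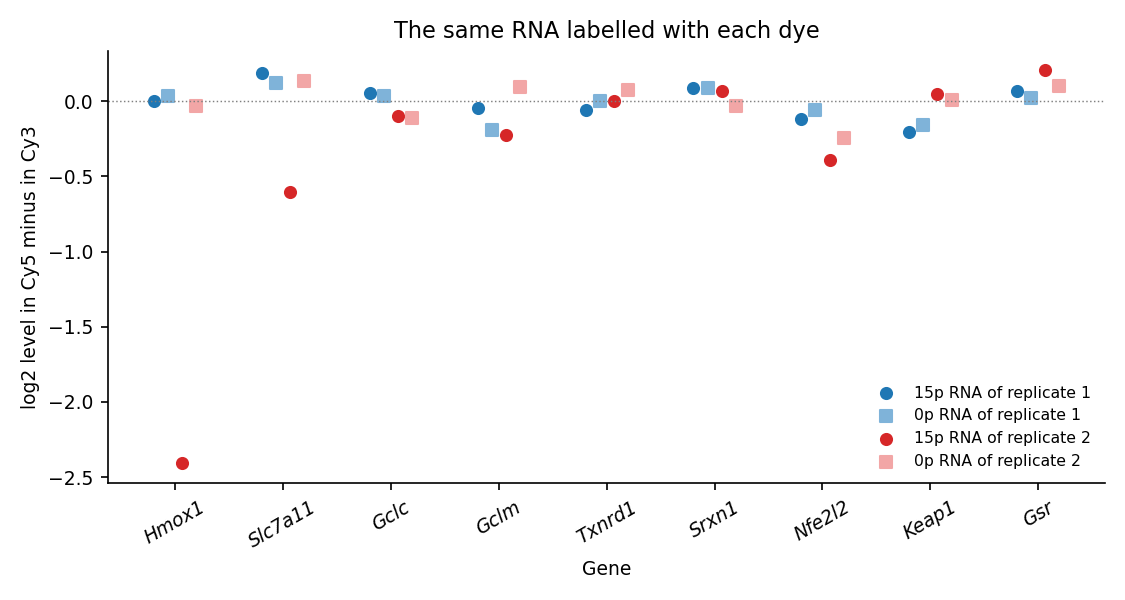
Log2 level in Cy5 minus log2 level in Cy3 (vertical axis) for 9 genes, with 1 point for each of the 4 RNAs, each of which was labelled with both dyes per the labels. Points lie near 0 except the 15p RNA of replicate 2, with -2.41 for Hmox1 and -0.60 for Slc7a11.

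The call for Hmox1 depended on the fit. A fit of all 4 arrays with a dye term and the replicate as a block gave the same mean of -0.58 with an adjusted p = 4.96e-07 (limma), and called 53 genes lower (0.305% of genes) and 7 higher (0.0403%). In that fit the prior degrees of freedom were estimated as infinite, so every gene received the common SD of 0.18, while the residual SD of Hmox1 itself was 1.24. Without array 2-Cy5 the Hmox1 ratio was 0.035 and did not pass. Without array 1-Cy5 it was -1.19 (limma adjusted p = 4.02e-73), again with a common spread for all genes. There array 2-Cy5 was alone in its dye orientation and added nothing to that spread.

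Among the genes of glutathione supply, Slc7a11 encodes the exchanger that imports cystine for glutathione synthesis. It had log2 ratios of 0.10, -0.21, -0.58 and -0.11. Its 15p levels were 7.55, 7.36, 6.96 and 7.56, and its 0p levels 7.45, 7.57, 7.54 and 7.68. The 15p and 0p levels overlapped, since the 15p level on the first array and that of the last lay within the range of 0p. The mean was -0.20 ± 0.21 (SD, n = 2; 95% interval -0.36 to -0.041; limma adjusted p = 0.749). It was -0.030 without array 2-Cy5, and -0.39 with the processed signals of the scanner software. On array 2-Cy5 its absolute ratio had rank 701 of 17376 genes. The spot was close to background there, with a Cy5 mean of 113 over a local background of 45, which limits these values.

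Gclm encodes the modifier subunit of glutamate-cysteine ligase, the enzyme that limits glutathione synthesis. Its ratios were -0.19, 0.046, -0.30 and -0.17, negative on 3 of 4 arrays. The mean was -0.15 ± 0.12 (SD, n = 2; 95% interval -0.29 to -0.021; limma adjusted p = 0.749), and the ratio was -0.071 without replicate 2. Gclc, the catalytic subunit of the same enzyme, had ratios of 0.0090, -0.082, -0.16 and 0.054. Its mean of -0.044 had a 95% interval of -0.16 to 0.076, and was -0.0026 without array 2-Cy5. The intervals of both subunits thus stayed within 0.3 log2 units of 0, and that of Gclc included 0.

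The enzymes that keep thiols reduced had means close to 0. Txnrd1, thioredoxin reductase 1, had ratios of 0.0041, 0.057, -0.054 and -0.13, with a mean of -0.030 ± 0.085 (SD, n = 2; 95% interval -0.16 to 0.097). Srxn1, sulfiredoxin, which restores overoxidised peroxiredoxins, had 0.085, -0.096, 0.0087 and -0.027 on the same arrays, with a mean of -0.0075 (95% interval -0.13 to 0.11). Srxn1 levels were the most even of the members, with a range of 0.090 in 15p and 0.091 in 0p RNA over the 4 arrays. Gsr, glutathione reductase, had ratios of 0.060, -0.026, 0.14 and -0.16, positive where 15p was in Cy5 and negative on the dye swaps. Its second probe, 75 bases upstream in the same transcript, showed the same split, with 0.17, -0.12, 0.15 and -0.21. The Gsr mean was 0.0036 ± 0.019 (95% interval -0.12 to 0.12), an SD that leaves this split out. In all, 3 of 9 members split by dye in this way, against 32.3% of all genes.

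The regulators themselves were well above background everywhere. Nfe2l2 had ratios of -0.12, 0.058, -0.48 and 0.15, and so split by dye. Its 15p levels were 12.36, 12.47, 12.27 and 12.66 and its 0p levels 12.48, 12.42, 12.75 and 12.51, which overlapped. The mean was -0.098 ± 0.094 (SD, n = 2; 95% interval -0.23 to 0.031; limma adjusted p = 0.767), and -0.0073 without array 2-Cy5. Keap1, the inhibitor, had ratios of -0.18, 0.19, 0.0013 and -0.055, with a mean of -0.011 (95% interval -0.13 to 0.11). NRF2 is controlled mainly through the stability of its protein, which these arrays do not measure.

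**Figure D3:**
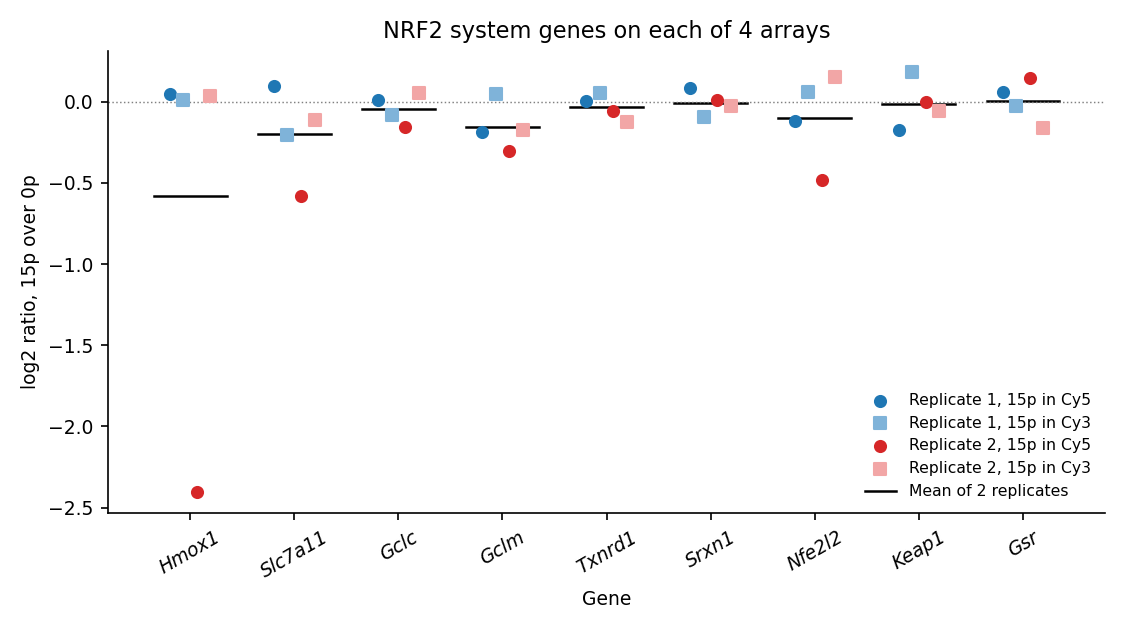
Log2 ratio of 15p over 0p (vertical axis) of the 9 tested members on each array (blue, replicate 1; red, replicate 2; circles, 15p in Cy5; squares, 15p in Cy3), with the mean of both replicates as a black line. All points lie between -0.58 and 0.19 except Hmox1 on array 2-Cy5, at -2.40.

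Nqo1 encodes a quinone reductase and is a classical NRF2 target. Its probe (chromosome 8, 109912440 to 109912499) was not well above background on any of the 4 arrays in either RNA. Mean signals were 52.3, 58.3, 52.3 and 62.9 in 15p, and 52.9, 60.7, 69.5 and 60.2 in 0p, over local backgrounds between 29 and 53. No ratio is given for it. A probe that is not well above background gives no measure of how much Nqo1 the cells had.

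Among all genes on array 2-Cy5, the members lay between the lower end of the distribution and a little above its middle. Their ratios there ran from -2.40 to 0.14 with a median of -0.16. All genes ran from -2.40 to 1.67, with a median of 0.0076 and an SD of 0.29. On this array 6 of 9 members were negative. On its dye swap 6 of 9 were too, but not the same ones. Hmox1, Gclc and Nfe2l2 were positive on the dye swap, and Srxn1, Keap1 and Gsr negative. The median of the members there was -0.055, against 0.0028 over all genes. In replicate 1 the medians of the members were 0.0090 and 0.0088. For 5 of 9 members the largest absolute ratio came from array 2-Cy5, where the share of all genes was 56.8%. Hmox1 was the only member over 2-fold lower there, against 0.472% of all genes. Without array 1-Cy5, 4 members were called lower and 0 higher, where 9.12% of genes were called lower and 8.83% higher (limma, 3 arrays with a dye term). Beside Hmox1 these were Slc7a11 (-0.37, adjusted p = 4.84e-07), Nfe2l2 (-0.19, adjusted p = 0.0238) and Gclm (-0.18, adjusted p = 0.0276). Of the other pathway genes listed below, 4 were called higher there (Gstp1 0.31, Gpx2 0.26, Osgin1 0.21 and Hmox2 0.17) and 1 lower (Fth1 -0.18). That fit rests on array 2-Cy5 as the only array of its dye orientation.

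**Figure D4:**
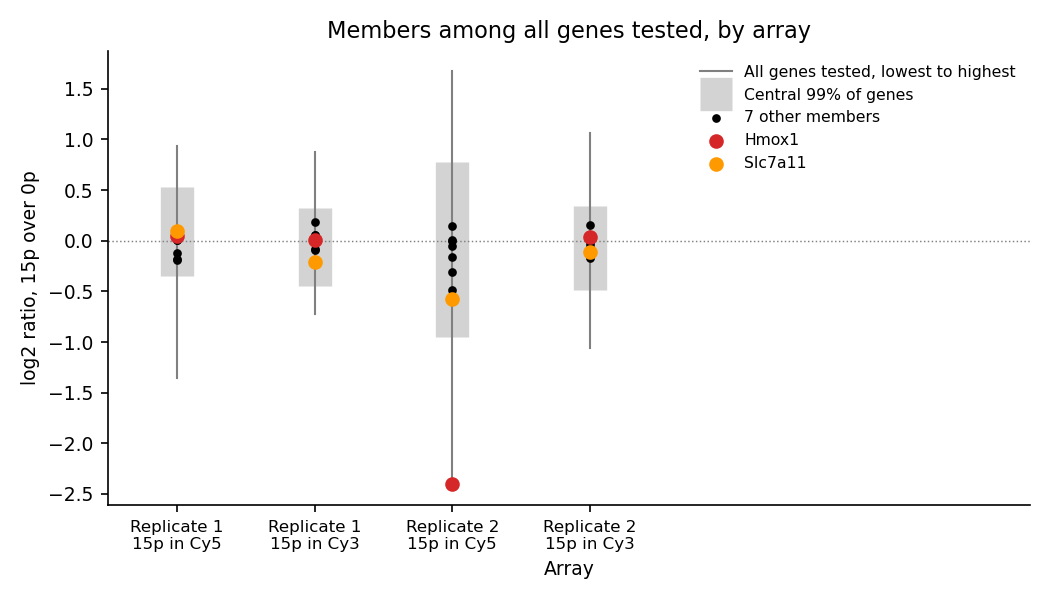
Log2 ratio of 15p over 0p (vertical axis) on each array: grey line, lowest to highest of all 17376 genes; grey band, central 99% of genes; points, the 9 tested members. Hmox1 marks the lower end of array 2-Cy5 at -2.40 and lies near 0 on the other 3.

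The 5 features most like Hmox1 over the log2 ratios of the 4 arrays, by Euclidean distance, were not annotated genes of the RefSeq table. They were the features A_55_P2074081, A_55_P2150224, A_55_P2043531, NAP112984-1 and Hmg1l1, named as in the files, at distances of 0.48 to 0.63. Each had a ratio between -2.03 and -1.90 on array 2-Cy5, and between 0.0054 and 0.16 on its dye swap. In replicate 1 they differed from Hmox1, with -0.21 to -0.13 where 15p was in Cy5 and 0.24 to 0.39 on the dye swap. The nearest features with a RefSeq symbol, chosen after their values were seen, were Gm5176, Gm5396 and 4932431P20Rik, with -1.84, -1.75 and -1.86 on that array.

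Other genes of the NRF2 pathway gave no call. Of 39 listed, 38 were tested and 0 passed in either direction, 22 with positive and 16 with negative ratios. Their median was 0.014 and their range -0.096 to 0.18. Cbr3, a carbonyl reductase, was not well above background on any array. At an unadjusted p under 0.05 (limma) stood 2 of the 38, Gstp1 and Gpx2, where the share of all genes was 6.31%. On array 2-Cy5, where Hmox1 was lowest, none of the 38 was beyond 2-fold, where the share of all genes was 0.622%. The median of the 38 there was 0.12.

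By role, the NADPH-supplying enzymes had a median of 0.018 over 6 genes, with Idh1, isocitrate dehydrogenase, at 0.11 ± 0.074 (SD, n = 2) and G6pdx, glucose-6-phosphate dehydrogenase, at 0.052 ± 0.12. Partners of glutathione and thioredoxin had a median of 0.010 over 8 genes. Gstp1, a glutathione transferase, had 0.18 ± 0.077, from 0.13, 0.12, 0.63 and -0.16. Gpx2, an epithelial glutathione peroxidase, had 0.14 ± 0.11, from -0.20, 0.33, 0.28 and 0.15. Neither had 1 sign on all arrays.

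Detoxification and export genes had a median of 0.0041 over 7 tested, with Ptgr1, prostaglandin reductase, at 0.069 ± 0.033 and Abcc4, an efflux pump, at -0.067 ± 0.077. Heme and iron genes, which act beside Hmox1, had a median of 0.057 over 7. Fth1, the ferritin heavy chain that stores the iron released from heme, had -0.096 ± 0.11, from 0.20, -0.24, -0.12 and -0.22. Hmox2, the constitutive heme oxygenase, had 0.076 ± 0.058. On array 2-Cy5 its ratio was 0.51 where that of Hmox1 was -2.40, and on the dye swap it was -0.27. Regulators had a median of -0.011 over 10, with Osgin1, an NRF2-induced growth inhibitor, at 0.11 ± 0.18 and Maff, a small Maf partner, at 0.100 ± 0.17. Each of these lists had 0 members called.

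**Figure D5:**
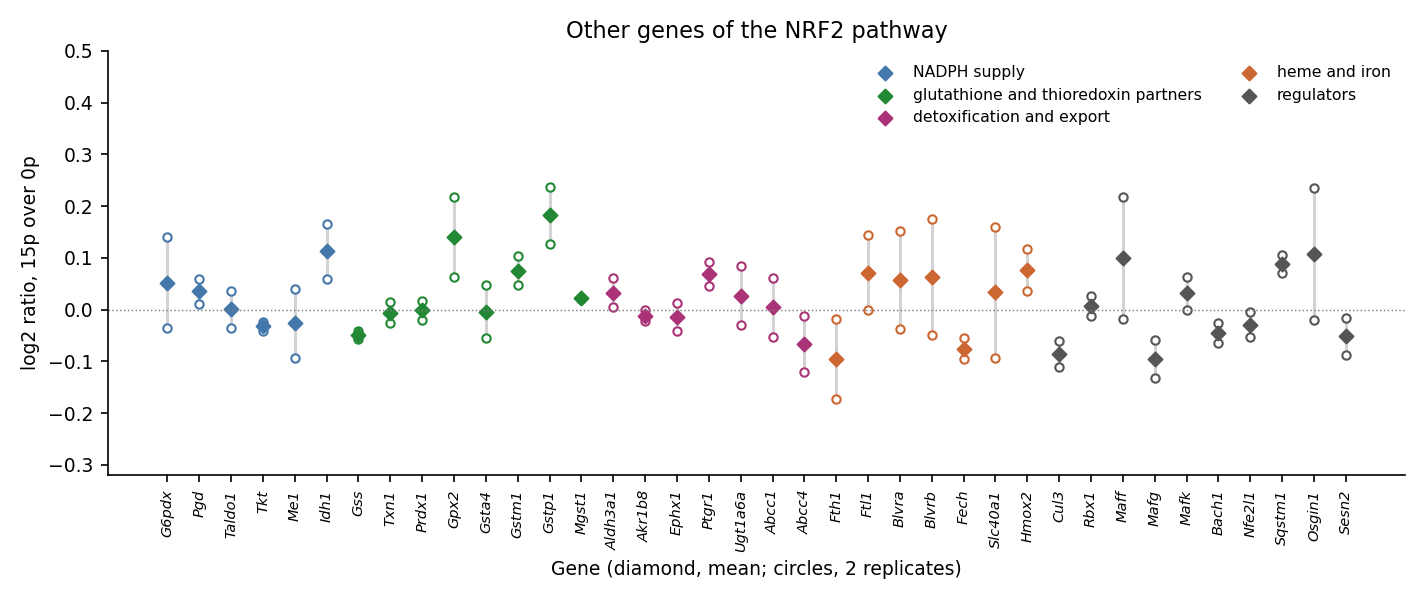
Log2 ratio of 15p over 0p (vertical axis) of 38 other NRF2 pathway genes, coloured by role; diamonds are means and open circles the 2 replicates. Means lie between -0.096 and 0.18, and none passed the test.

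Heme oxygenase is also abundant in macrophages. Of 6 markers of macrophages and other leukocytes, Cd68 and Csf1r were well above background on all arrays, with mean ratios of 0.025 and 0.043 and ratios of 0.12 and 0.10 on array 2-Cy5. Ptprc was so on 3 arrays in each RNA, Adgre1 and Cd163 on at most 2, and Lyz2 on none. Of the erythroid markers, Hba-a1 was tested (0.10, and 0.29 on that array), and Hbb-b1 and Alas2 were above background on no array. Tested markers numbered 1 of 5 for fibroblasts, 2 of 3 for endothelium and 1 of 3 for melanocytes, and none of these markers passed.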

How the data were processed

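For each dye the deposited array files give the mean intensity of a spot and its local background, extracted with Agilent Feature Extraction 10.7.3.1 per the file headers and the submitters' processing notes. Processed intensity and the log10 ratio of Cy5 over Cy3 in the same deposited files were detrended and dye-normalised, per the file headers. Other columns, per the file headers, are flags and pixel numbers. The deposited value table equals these log10 ratios within 0.0045, has column medians of 0 and is not turned for the dye swap; it served as an alternative.

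In R 4.3.3 with limma 3.58.1, mean intensities were corrected with normexp (offset 50) and normalised by loess within each array, with control spots at weight 0. Levels are log2 values after Aquantile normalisation between arrays. Control spots and irregular spots (154 to 286 of 43020 an array) were left out. Probes well above background on all 4 arrays in either RNA were kept (21660), and the brightest stood for its gene, named by RefSeq symbol where the transcript accession matched (26055 probes). Ratios were turned to 15p over 0p, dye-swapped pairs averaged, and the 2 replicate values tested against 0 with lmFit and eBayes (residual degrees of freedom 1, prior 8.88). Fits were also run on simulated data with independent errors and no single deviating channel, so those runs cannot decide the Hmox1 call.

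The pairing comes from the labels, which call the second array of each replicate its dye swap. As a check, deviations from each dye orientation's mean were correlated between the arrays of a replicate, with r = -0.26 across genes: arrays of a replicate did not deviate together, so the pairing rests on the labels alone. Slide and replicate coincide and cannot be told apart. Members and lists were chosen with earlier results of these data known. Named are all members, in each pathway group the 2 genes with the largest absolute mean ratios, the 5 features nearest to Hmox1 and the cell type markers. Alternatives covered background, normalisation, filter, probe choice, fit and left-out arrays.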

Additional observations from a re-analysis of the deposited data

Results flagged for a closer look

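Of 33 sets of 4 values (ratio, 15p level and 0p level for each of 11 kept member probes), 3 had a value far from the other 3, by a gap that chance gives in about 1 of 20 sets. All belonged to Hmox1 on array 2-Cy5. They were the ratio of the brighter probe (-2.40), its 15p level (8.35) and the ratio of the dimmer probe (-0.62). A ratio is the 15p level minus the 0p level, so the sets are not independent and the brighter spot counts in 2 of them. With 33 sets at about 1 in 20, chance alone would flag some. The gap to the nearest other value, divided by the range of the set, was 0.98, 0.90 and 0.97, above the critical value of 0.829 for 4 values. The cause was not tested.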

How the results depend on the processing

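Of 14 alternative fits with a test, 8 called no gene. Crossed pairing, added after the data were seen, leaves the same residual as the replicate block with a dye term: each called 7 genes higher, 53 lower and 1 member, Hmox1 (-0.58). Without a filter on dim probes 1 gene was called lower, Rtn4, named after its value was seen, which was also the 1 called without array 2-Cy3. Over fits that left out 1 array or replicate, calls ran from 0 to 1535 higher, 0 to 1585 lower, 0 to 4 members and 0 to 5 other pathway genes (Fth1 lower; Gpx2, Gstp1, Hmox2 and Osgin1 higher). Without array 2-Cy5 42 genes were called higher and 46 lower, and 0 members. Over the fits that left out 1 array or replicate, ratios ran from -1.19 to 0.035 for Hmox1, -0.026 to 0.011 for Srxn1, -0.031 to 0.038 for Gsr, -0.090 to 0.030 for Txnrd1 and -0.071 to 0.049 for Keap1, and each changed sign. Values of the opposite sign inside these ranges were 0.033 for Keap1 (without array 1-Cy5), 0.0098 for Srxn1 (without 1-Cy3), -0.017 for Gsr (without 2-Cy5) and 0.016 for Txnrd1 (without 2-Cy3). Slc7a11, Gclc, Gclm and Nfe2l2 kept their sign in all 16 alternatives but not their size: the same fits gave -0.37 to -0.030, -0.086 to -0.0026, -0.24 to -0.071 and -0.19 to -0.0073. Under the 10 alternatives that kept all arrays, Hmox1 ran from -0.63 to -0.34 and Slc7a11 from -0.39 to -0.20. Signal close to background limits the Slc7a11 and dimmer Hmox1 values.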
